A study of Homo sapiens with 6 samples.

Results

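The alcohol dehydrogenase (ADH) cluster is a run of related genes on human chromosome 4. Its 6 members considered here are ADH5, ADH4, ADH6, ADH1A, ADH1B and ADH1C, all found by symbol among the 57500 genes of the deposited count files. The set was proposed with raw counts of the glycine and vehicle libraries in view, so its members are treated as selected on those counts. The contrast between these libraries is therefore a description of the members and no test of them. The genes span chr4:99070978-99353027 on GRCh38, a stretch of 282.0 kb, and are all transcribed from the minus strand.

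RNA was sequenced from wild-type HepG2 cells, an established human hepatocellular carcinoma line, after 24 h with vehicle or with 10 mM glycine. There were 3 vehicle and 3 glycine libraries. Both groups were grown in the same low-glucose medium with serum and antibiotics, which itself contains glycine. All libraries came from 1 tumour line, and the labels name no ethanol or other ADH substrate.

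ADH enzymes are zinc-dependent and use NAD to turn alcohols into aldehydes or ketones, which aldehyde dehydrogenases then oxidise to acids. The class I subunits, made by ADH1A, ADH1B and ADH1C, carry most ethanol oxidation in adult liver at low ethanol levels. ADH4 makes the class II enzyme of liver, which acts on ethanol at higher concentrations and on retinol and longer alcohols. ADH5 makes the class III enzyme, present in nearly all tissues, which is the glutathione-dependent formaldehyde dehydrogenase and also reduces S-nitrosoglutathione. ADH6, of class V, is known mainly from its liver mRNA.

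The start of each coding sequence is shown because the relatedness of the genes decides how surely a read can be given to one of them. The sequences are the first 60 coding bases of the principal GENCODE 29 transcript, 5′ to 3′. Capitals mark bases with no identical ADH1A base opposite them in a pairwise alignment. Bases opposite a gap are therefore capitals too, as in the start codon of ADH5.
ADH1A: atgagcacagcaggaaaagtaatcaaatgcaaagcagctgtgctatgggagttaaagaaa
ADH1B: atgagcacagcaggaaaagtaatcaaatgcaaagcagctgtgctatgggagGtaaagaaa
ADH1C: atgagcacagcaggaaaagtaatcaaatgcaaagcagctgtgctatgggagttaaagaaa
ADH6: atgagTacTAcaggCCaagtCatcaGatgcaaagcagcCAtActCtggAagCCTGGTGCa
ADH4: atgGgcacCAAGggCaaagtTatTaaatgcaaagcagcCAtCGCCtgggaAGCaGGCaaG
ADH5: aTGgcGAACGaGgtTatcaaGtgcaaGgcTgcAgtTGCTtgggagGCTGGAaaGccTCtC

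Over the whole coding sequence, ADH1A, ADH1B and ADH1C were 93.9 to 95.6% identical to each other. ADH4 shared 69.4% of its aligned coding bases with ADH5 and 67.2% with ADH6. Of all 50-base windows in the principal transcript, 14.3% for ADH1A, 9.22% for ADH1B and 15.9% for ADH1C also occurred in another ADH transcript. For ADH4, ADH5 and ADH6 the share was 0%. Counts of the 3 class I genes are therefore uncertain between these genes, because how reads that fit several genes were counted is not given in the sources used here.

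Library totals ranged from 31795489 to 58815986 counts. CPM is the count of a gene relative to the scaled library total, and 1 count was worth 0.0171 to 0.0313 CPM. Replicates of a group differed by more than counting noise, with a chi-square per degree of freedom of 7.59 to 29.3. Liver identity was checked on 11 hepatocyte or hepatoma markers, with mean levels of 116 to 10752 CPM. Their summed level was 33593 to 38149 CPM in vehicle and 30332 to 34098 CPM in glycine libraries. APOA1 and TTR were called lower with glycine (log2 fold changes -0.26 and -0.32, edgeR adjusted p = 0.0483 and 0.00921), and the other markers of this list were not called. Of the markers for other cell types, 3 of 5 fibroblast, 3 of 4 blood, 2 of 3 endothelial and 1 of 2 neuronal genes stayed below 1 CPM in every library, and CD3E was at 0 in all. The summed level of the blood list was 2.58 to 2.91 CPM in vehicle and 5.14 to 5.60 CPM in glycine libraries. Nearly all of it was CD14, which was called higher (edgeR adjusted p = 0.00016). The summed level of the fibroblast list was 27.1 to 31.1 CPM in vehicle and 21.3 to 22.0 CPM in glycine libraries. Most of it was PDGFRB, which was called lower (edgeR adjusted p = 0.000137). COL1A1 of the same list went the other way, from 2.15 to 4.38 CPM (edgeR adjusted p = 0.000585). The endothelial marker VWF, below 1 CPM, was called lower (log2 fold change -1.18, edgeR adjusted p = 0.0239). PECAM1, CDH5 and SYP were not called. The part of these markers in the results below was not tested.

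In vehicle-treated cells the cluster was dominated by ADH5. Levels between genes were compared as CPM per kb of exon length. ADH5 stood at 44.6 ± 0.817 CPM per kb (SD, n = 3), ADH6 at 17.4 ± 1.96 and ADH4 at 5.83 ± 0.139. Among these 3 genes no library of a gene reached the range of its neighbour in this order. The class I genes lay far below, at 0.0345 ± 0.0123 CPM per kb for ADH1B, 0.0293 ± 0.00746 for ADH1A and 0.00499 ± 0.00863 for ADH1C. On this scale ADH1B and ADH1A did not differ beyond their spread.

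With glycine the order of the 3 abundant genes was the same on the per-kb scale. ADH5 stood at 49.3 ± 2.22 CPM per kb (SD, n = 3), ADH6 at 17.2 ± 1.31 and ADH4 at 14.1 ± 0.877. On this scale ADH4 had moved close to ADH6, with 13.6 to 15.1 CPM per kb against 16.1 to 18.6, and the ranges did not meet. The exon length used for ADH1B was 10674 bases against 4072 bases in its principal transcript, so the per-kb level of a gene depends on the gene model. Per kb of the principal transcript, glycine levels were 91.8 CPM per kb for ADH5, 44.8 for ADH6 and 17.4 for ADH4, in the same order. By that measure ADH4 stayed far below ADH6, so their closeness holds for the exon lengths alone. The class I genes again lay far below, at 0.0207 CPM per kb of exon length for ADH1A, 0.0135 for ADH1B and 0.00306 for ADH1C. The ranges of ADH1A and ADH1B overlapped. Per kb of the principal transcript ADH1B came before ADH1A, at 0.0354 ± 0.0105 and 0.0312 ± 0.0225 CPM per kb with glycine. With vehicle these levels were 0.0905 ± 0.0321 and 0.0442 ± 0.0112, so the order of ADH1A and ADH1B also depends on the gene model.

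ADH4 was the member that differed most between the groups. Its CPM in the 3 vehicle libraries was 14.6, 14.0 and 14.3, from 513, 487 and 514 counts. In the 3 glycine libraries it was 37.2, 33.4 and 33.5, from 1186, 1955 and 1412 counts. Every glycine library was thus above every vehicle library, and the lowest glycine value exceeded the highest vehicle value by more than the whole range within either group. Groups without overlap were found for 31.6% of all tested genes. The mean went from 14.3 ± 0.341 to 34.7 ± 2.15 CPM (SD, n = 3 each), a 2.42-fold higher level and a log2 fold change of 1.28 ± 0.0737 (SE). In bulk RNA, more cells expressing a gene and more RNA per cell cannot be told apart.

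**Figure D1:**
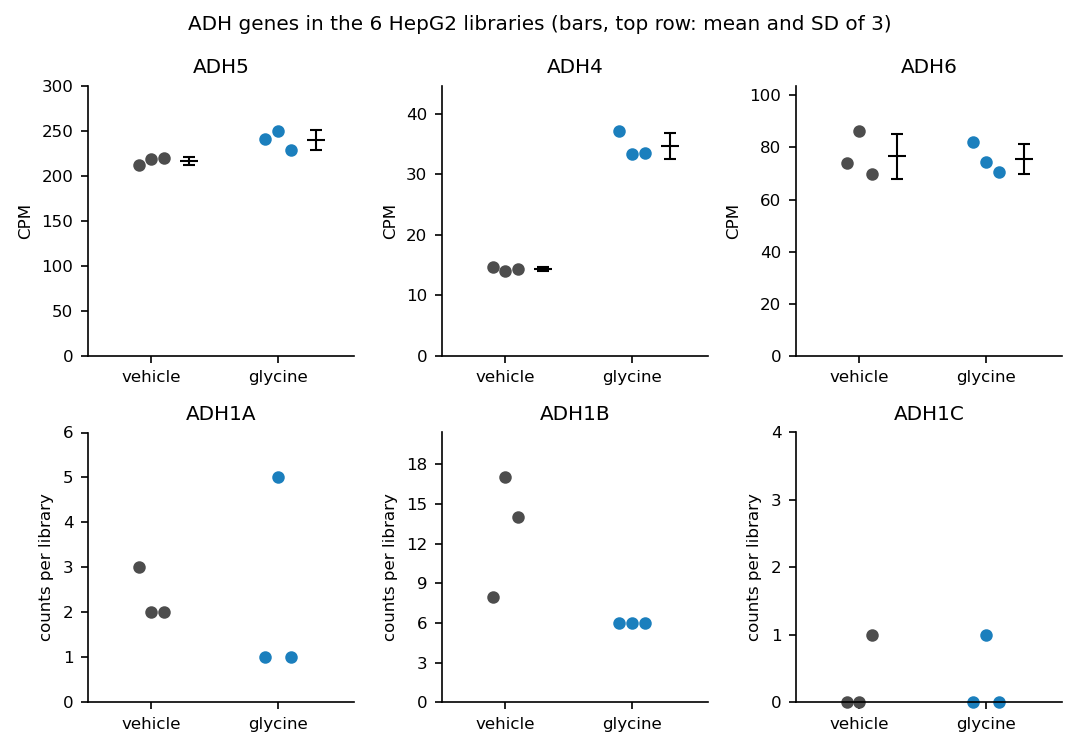
CPM of ADH5, ADH4 and ADH6 (top row) and raw counts of ADH1A, ADH1B and ADH1C (bottom row) in each of the 3 vehicle (grey) and 3 glycine (blue) libraries, with the mean and SD beside the points in the top row. ADH4 lies at 14.0 to 14.6 CPM in vehicle and 33.4 to 37.2 CPM in glycine libraries, while the class I genes have at most 17 counts in any library.

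Of the 6 members, 3 passed the filter on low counts and 1, ADH4, was called at an adjusted p under 0.05 in the edgeR quasi-likelihood fit across all genes. In that fit 13.3% of the 15492 tested genes were called, 6.71% as higher and 6.54% as lower with glycine. By the size of its log2 change ADH4 ranked 59 from the top among all tested genes, and 57 of the genes called higher changed at least as much, ADH4 included. The median log2 change over all tested genes was 0.00.

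ADH5, the formaldehyde-oxidising enzyme and the most abundant member, lay somewhat higher in the glycine libraries. It had 212, 218 and 220 CPM in the vehicle libraries and 241, 250 and 229 CPM in the glycine libraries. The groups did not overlap, which held for 31.6% of all tested genes. The mean went from 217 ± 3.98 to 240 ± 10.8 CPM (SD, n = 3 each), and the log2 fold change of 0.15 ± 0.0620 (SE) was not called.

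ADH6, the class V gene between ADH4 and the class I genes, had overlapping groups. Its vehicle libraries held 73.9, 86.3 and 69.7 CPM and its glycine libraries 82.0, 74.5 and 70.7 CPM. The highest and the lowest value of the 6 were both in the vehicle group. The log2 fold change was -0.02 ± 0.0840 (SE), with means of 76.6 ± 8.64 and 75.7 ± 5.75 CPM (SD, n = 3 each). Of its exon bases, 1.70% also lie in ENSG00000246090, a gene on the opposite strand, and the strand setting of the counting is not given in the sources used here.

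The class I genes, which carry ethanol oxidation in adult liver, were at or near the limit of detection. ADH1A had 3, 2 and 2 counts in the vehicle libraries and 1, 5 and 1 counts in the glycine libraries. Of its exon bases, 11.7% also lie in ENSG00000246090, the gene on the opposite strand. The part of reads from that gene in the ADH1A counts was not tested. ADH1C had 1 count in 1 library of each group and 0 in the others. Neither gene passed the low-count filter, and at this depth a difference between groups was not detectable. With no filter the log2 fold changes were -0.34 ± 0.961 (SE) for ADH1A and -0.25 ± 2.01 (SE) for ADH1C, and neither was called.

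ADH1B had 8, 17 and 14 counts with vehicle and 6, 6 and 6 with glycine. As CPM these were 0.228, 0.487 and 0.389 against 0.188, 0.103 and 0.142, and the groups did not overlap. The closest libraries held 8 and 6 counts, and 31.6% of all tested genes had no overlap. Summed over libraries, 39 counts gave 0.366 CPM in vehicle (95% exact Poisson interval 0.260 to 0.501) and 18 counts gave 0.136 CPM in glycine (0.0807 to 0.215), intervals that cover counting error only. All 3 class I genes fell under the low-count filter and were not tested. With no filter ADH1B was called lower, with a log2 fold change of -1.40 ± 0.472 (SE), and the 3 class I genes counted as 1 feature had a log2 fold change of -1.17 ± 0.350 (SE), most of whose counts are those of ADH1B. The sum was at 0.314, 0.545 and 0.473 CPM with vehicle and 0.219, 0.205 and 0.166 CPM with glycine, so it passed the filter through the vehicle libraries alone, which fixes the direction a call can take, and its call supports nothing.

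ADH7, the class IV gene of stomach and oesophagus that lies beyond ADH1C, had 0 counts in all 6 libraries. A count of 0 allowed up to 0.0282 CPM over the vehicle and 0.0227 CPM over the glycine libraries, taking 3 counts as the limit.

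Ratios between members within a library do not depend on library scaling. For every 100 ADH5 counts the vehicle libraries held 6.90, 6.39 and 6.51 ADH4 counts, and the glycine libraries 15.4, 13.4 and 14.6. For every 100 ADH6 counts there were 18.8 ± 2.33 ADH4 counts with vehicle and 45.8 ± 1.31 with glycine (SD, n = 3 each). Both ratios separated the groups completely. ADH6 per 100 ADH5 counts, in contrast, was 35.3 ± 3.92 and 31.6 ± 2.20 and overlapped.

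**Figure D2:**
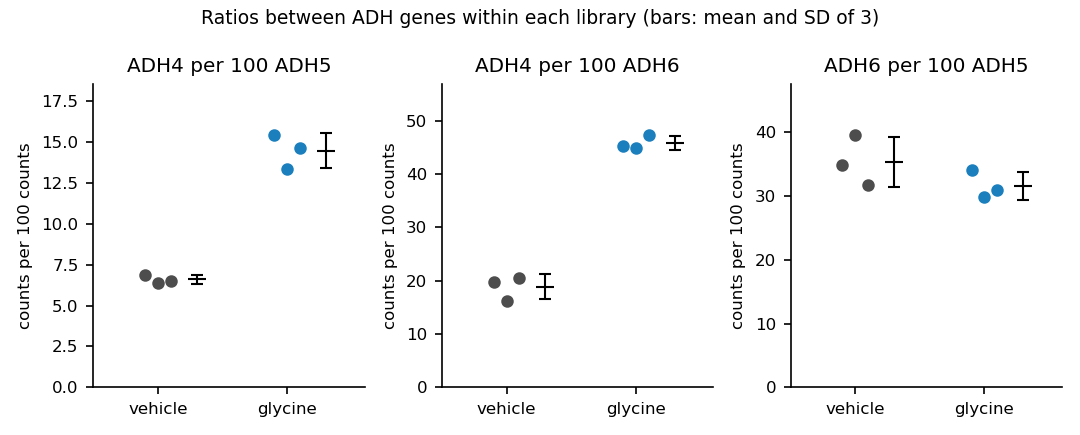
Counts of one ADH gene per 100 counts of another in each vehicle (grey) and glycine (blue) library, with the mean and SD of 3 libraries beside the points. The ratios with ADH4 as numerator lie apart (6.39 to 6.90 against 13.4 to 15.4 per 100 ADH5 counts), and that of ADH6 to ADH5 overlaps between the groups.

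The cluster as a whole gave 308 ± 9.70 CPM in vehicle and 351 ± 15.2 CPM in glycine libraries (SD, n = 3 each). ADH4 made up 4.64 ± 0.249% of the cluster counts in vehicle and 9.89 ± 0.511% in glycine libraries. As a share of the levels per kb of exon length it was 8.60 ± 0.453% and 17.5 ± 0.817%, values that depend on the gene models. ADH5 remained the main contributor to the counts, with 70.4 ± 1.91% and 68.5 ± 1.49%. ADH6 contributed 24.8 ± 2.08% and 21.6 ± 1.03% of the counts.

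The position of ADH4 within the cluster was compared with its neighbours. ADH4 (ENSG00000198099) spans chr4:99123657-99157792, with ADH5 (ENSG00000197894) at chr4:99070978-99088801 on one side and ADH6 (ENSG00000172955) at chr4:99202638-99219537 on the other. Further along lie ADH1A (ENSG00000187758) at chr4:99276367-99291028, ADH1B (ENSG00000196616) at chr4:99304964-99321401 and ADH1C (ENSG00000248144) at chr4:99336492-99353027. Coordinates are those of the deposited files on GRCh38. ADH1B alone among the members differed from GENCODE 29, where its span reaches position 99352760.

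Within 500 kb of the cluster the files list 25 other genes, of which 7 were tested, 1 was called higher and 1 lower. The shares over all tested genes were 6.71% higher and 6.54% lower. TSPAN5, a tetraspanin gene at the far end beyond EIF4E, rose from 1.48 ± 0.0676 to 3.05 ± 0.191 CPM (SD, n = 3 each), a log2 fold change of 1.04 ± 0.147 (SE, edgeR adjusted p = 0.000453). MTTP, which encodes the protein that loads lipid onto apolipoprotein B, fell from 73.4 ± 4.53 to 49.3 ± 2.06 CPM, a log2 fold change of -0.57 ± 0.0679 (SE, edgeR adjusted p = 0.000104). The 2 called neighbours lay on opposite sides of the cluster and moved in opposite directions.

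The other tested neighbours, those nearest to ADH4 included, did not pass the test, and the pseudogene PCNAP1, which lies next to ADH4, was too low to be tested. ENSG00000246090, transcribed opposite to the cluster and spanning ADH4, ADH6 and ADH1A, had 0.709 ± 0.0546 CPM in vehicle and 0.865 ± 0.264 CPM in glycine libraries (log2 fold change 0.33 ± 0.260, edgeR adjusted p = 0.448). None of its exon bases lies in an ADH4 exon. Log2 fold changes were 0.07 for METAP1, a methionine aminopeptidase, 0.11 for the cap-binding protein EIF4E, 0.20 for ENSG00000272777 and 0.32 for the tRNA methyltransferase TRMT10A, with edgeR adjusted p-values of 0.512, 0.302, 0.707 and 0.0600.

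**Figure D3:**
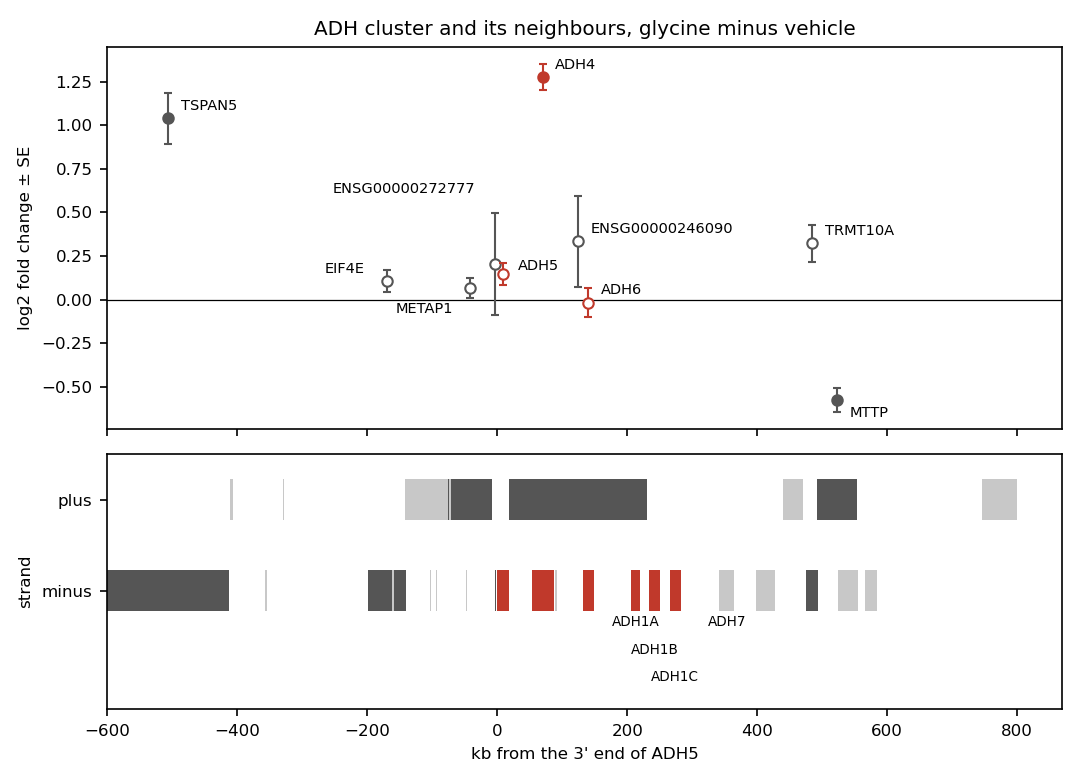
Log2 fold change with its SE of each tested gene (top; filled points were called, red are the ADH members) above the gene spans by strand (bottom; red the 6 ADH members, dark grey other tested genes, light grey untested genes), in kb from the 3′ end of ADH5. ADH4 at 1.28 stands between ADH5 at 0.15 and ADH6 at -0.02, and the called neighbours are TSPAN5 at 1.04 and MTTP at -0.57.

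The sequences upstream of the 3 expressed genes are shown because ADH4 differed between groups while its flanking members ADH5 and ADH6 were not called. The windows are the 250 bases before the RefSeq transcript start (GRCh38.p14, minus strand), printed 5′ to 3′. Capitals mark matches on either strand to the TATA box (letters TATAAA), the CCAAT box (letters CCAAT), the GC box (letters GGGCGG), a C/EBP site (letters TTNNGNAA), an E-box (letters CACGTG) or the core of an HNF1 site (letters GTTAAT).
ADH4, chr4:99144298-99144547: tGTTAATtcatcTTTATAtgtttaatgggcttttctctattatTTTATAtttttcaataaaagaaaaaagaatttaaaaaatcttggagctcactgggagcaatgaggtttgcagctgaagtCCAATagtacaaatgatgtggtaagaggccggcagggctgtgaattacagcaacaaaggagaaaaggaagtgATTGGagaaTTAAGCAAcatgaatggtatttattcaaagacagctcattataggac
ADH6, chr4:99219247-99219496: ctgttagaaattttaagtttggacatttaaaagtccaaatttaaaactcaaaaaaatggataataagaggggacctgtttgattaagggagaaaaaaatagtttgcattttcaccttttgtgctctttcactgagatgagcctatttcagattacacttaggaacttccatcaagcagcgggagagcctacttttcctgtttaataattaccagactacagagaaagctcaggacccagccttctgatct
ADH5, chr4:99088789-99089038: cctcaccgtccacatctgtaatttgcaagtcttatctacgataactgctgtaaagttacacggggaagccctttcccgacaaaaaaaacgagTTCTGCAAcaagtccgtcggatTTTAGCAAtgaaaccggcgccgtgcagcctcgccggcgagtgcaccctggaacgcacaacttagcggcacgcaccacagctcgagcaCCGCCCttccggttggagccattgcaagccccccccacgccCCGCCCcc

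The ADH4 window held 2 matches to the TATA box, 2 to the CCAAT box, 1 to the C/EBP site and 1 to the HNF1 core, and none to the other motifs. Its TATA box matches, both read as TTTATA, began at -238 and -207 from the transcript start, and the HNF1 core at -249. Whether any match is used was not tested. The ADH5 window held 2 matches to the GC box and 2 to the C/EBP site, and the ADH6 window none to any of the 6 motifs. No matches overlapped in these windows. The windows of ADH1A, ADH1B and ADH1C, not printed, were 82.5 to 86.8% identical to each other. Among 35116 RefSeq windows of this length, 10.7% held the TATA box, 32.0% the CCAAT box, 42.6% the GC box, 33.2% the C/EBP site, 6.34% the E-box and 6.23% the HNF1 core. The GC content was 34% for ADH4, 36.4% for ADH6 and 58% for ADH5, against a median of 58.0% over all windows. The ADH4 and ADH6 windows both lie inside the longer gene spans of the files, and the files do not show which start was used in these cells.

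Genes for factors chosen as possible regulators of liver ADH genes were next examined. Whether each acts on an ADH promoter was not tested. All 23 were tested, 0 were called higher and 4 lower in the edgeR fit, and 19 were not called. DESeq2 and limma-voom also called 0 higher, and FOXA1 alone had an unadjusted p under 0.05 on that side in each of the 3 tools. The share of higher calls over all tested genes was 6.71% and that of lower calls 6.54%. The list had a median log2 change of -0.09. The genes that fell were FOXA3, a liver forkhead factor, TEF, a PAR bZIP factor, PPARA, the fatty acid receptor, and its coactivator PPARGC1A. Their log2 fold changes were -0.33, -0.37, -0.41 and -0.43, with edgeR adjusted p-values of 0.00371, 0.00927, 0.0104 and 0.0125. In this list the 3 most abundant genes did not pass the test: HNF4A had 545 ± 43.3 and 473 ± 31.7 CPM (edgeR adjusted p = 0.109), HLF a log2 fold change of -0.06 and CEBPA one of -0.01. PPARGC1A lost its call without vehicle replicate 1 (edgeR adjusted p = 0.0504) and without glycine replicate 2 (0.0506).

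Genes that handle alcohols, aldehydes and retinoids beside the ADH enzymes numbered 39, of which 30 were tested, 1 was called higher, 9 lower and 20 were not called. Over all tested genes 6.71% were called higher and 6.54% lower. The list was chosen with earlier results of these data known, so its counts are a description. The median log2 change was -0.15, against 0.00 over all tested genes. Without glycine replicate 3, 6 of the list were called instead of 10. ACSS1, the mitochondrial enzyme that activates acetate, the end product of ethanol oxidation, fell from 89.1 ± 0.675 to 51.9 ± 0.188 CPM (SD, n = 3 each), a log2 fold change of -0.78 ± 0.0581 (SE, edgeR adjusted p = 2.6e-06). CAT, the peroxisomal catalase, fell from 116 ± 0.766 to 92.8 ± 0.646 CPM (edgeR adjusted p = 0.00209). ALDH1A1, the abundant cytosolic retinal and aldehyde dehydrogenase, fell from 816 ± 50.7 to 627 ± 35.0 CPM (edgeR adjusted p = 0.00513).

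The list also holds 5 fatty acid hydroxylases of the CYP4 family. CYP4F11 and CYP4F3, omega-hydroxylases whose products are ADH substrates, fell by 0.45 and 0.56 on the log2 scale (edgeR adjusted p = 0.00203 and 0.00237), whereas CYP4F12 had a log2 fold change of -0.19 (edgeR adjusted p = 0.261) and CYP4A11 was too low to be tested. The secreted retinol carrier RBP4 had 574 CPM in both groups. ALDH1B1, a mitochondrial aldehyde dehydrogenase, had 360 ± 17.2 and 314 ± 3.05 CPM (edgeR adjusted p = 0.0581). The other 4 genes called lower, named after their values were seen, were ALDH2, the mitochondrial enzyme that clears acetaldehyde, CYP4F2, DHRS4 and RXRA, with log2 fold changes between -0.42 and -0.23.

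Within the wider medium-chain dehydrogenase family, to which the ADH enzymes belong, 12 genes were listed, 10 were tested, 1 was called higher and 1 lower. Of all tested genes, 6.71% were called higher and 6.54% lower. TP53I3, a quinone oxidoreductase under p53 control, rose from 55.3 ± 2.33 to 69.4 ± 3.24 CPM (SD, n = 3 each, edgeR adjusted p = 0.00525). PTGR1, a prostaglandin and alkenal reductase, fell from 31.3 ± 4.66 to 23.0 ± 2.30 CPM (edgeR adjusted p = 0.0126), and this call was lost without glycine replicate 3 (0.0531). The abundant relatives VAT1, SORD, the sorbitol dehydrogenase, and CRYZ had log2 fold changes of 0.12, -0.02 and 0.01 and were not called. ADH7 belongs to this list and to the one before.

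**Figure D4:**
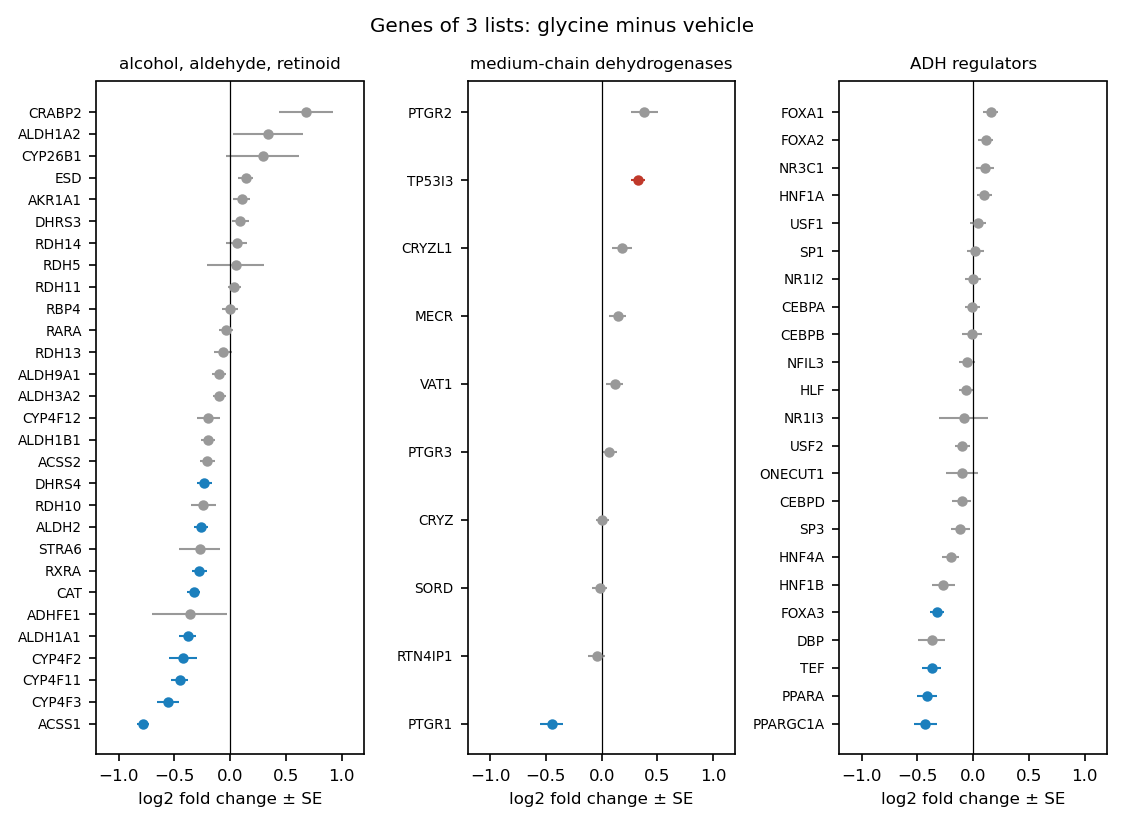
Log2 fold change (glycine minus vehicle) with its SE for the tested genes of 3 lists, with 1 gene not shown, each sorted by its change; the red point was called higher, blue points lower and grey points were not called. In the alcohol, aldehyde and retinoid list 9 of 30 tested genes were called lower, against 6.54% of all tested genes. No gene of the regulator list was called higher.

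The genes most alike to each expressed member were sought over the 6 libraries among the 9110 genes averaging 10 CPM or more, by Pearson correlation of log2 CPM as a description. The difference between the groups enters this measure. For ADH4 the closest were TMEM237, STMN3 and RIN1 (r = 0.999, 0.998 and 0.997). STMN3, for example, had 59.9, 57.1 and 60.5 CPM in the vehicle and 95.1, 89.6 and 89.0 CPM in the glycine libraries. For ADH5 they were CERS5, CYCS and SART1 (r = 0.996, 0.994 and 0.993), and for ADH6 they included INTS4 and ANTXR2 (r = 0.990 and 0.988). INTS4, a subunit of the Integrator complex, had 23.8, 26.5 and 23.3 CPM in the vehicle libraries and 25.3, 23.9 and 23.1 CPM in the glycine libraries, with its highest value in the same library as ADH6.

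The log2 fold changes of the 3 expressed members were recomputed under each other way of analysing the counts. Over 14 alternatives the log2 fold change of ADH4 lay between 1.21 and 1.30, that of ADH5 between 0.12 and 0.17 and that of ADH6 between -0.09 and 0.08. ADH4 was called and ADH5 and ADH6 were not called under each of these alternatives. All of them reuse the libraries on which the members were selected. These calls therefore describe how the values depend on the settings and test no member. The lowest ADH4 value came without glycine replicate 1, the library with its highest level.

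**Figure D5:**
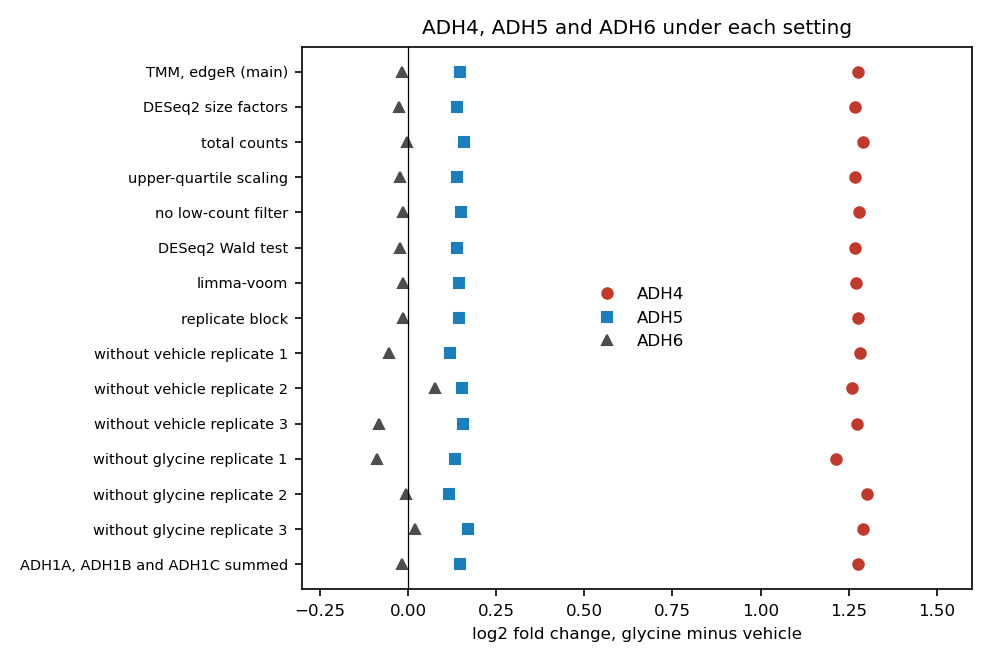
Log2 fold change (x axis) of ADH4 (circles), ADH5 (squares) and ADH6 (triangles) under the main settings and 14 alternatives (rows). ADH4 stays between 1.21 and 1.30 and ADH6 lies on either side of 0, from -0.09 to 0.08.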

How the data were processed

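The authors deposited 1 file per library with raw counts per gene as whole numbers. The submitters' processing notes name Trimmomatic 0.36, STAR 2.5.2b, featureCounts of Subread 1.5.2 and GRCh38; annotation release, strand setting and handling of multi-mapped reads are not given in the sources used here. Libraries were grouped by their treatment label. The members and gene lists were chosen with earlier results of these data known.

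Counts were scaled by TMM (trimmed mean of M values) and tested with the quasi-likelihood method of edgeR 4.0.16 (R 4.3.3, two-sided, group only), after its expression filter (minimum count 10, minimum total 15), with Benjamini-Hochberg adjustment over 15492 genes and a threshold of 0.05. P-values measure the spread between these libraries. Standard errors were the log2 change divided by the root of its F statistic. CPM used scaled library sizes, except Poisson intervals and limits, which used raw totals. The script was tested on simulated counts.

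Named genes were all members, ADH7, each tested neighbour, the 5 called genes of smallest p in each list plus up to 3 further genes of highest mean CPM, and the 3 genes most alike to each expressed member; 2 genes that this rule names are not reported here. Symbols were matched for 56410 of 57500 genes, and all 6 members had a RefSeq promoter. The alternatives were DESeq2 1.42.0, limma 3.58.1 (voom), 3 other scalings, no filter, a replicate block, each library left out and class I counts summed. The spans of 30 of the 31 genes in the region matched GENCODE 29.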

Additional observations from a re-analysis of the deposited data

How the results depend on the processing

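Of the 6 members, 1 was called in the main analysis. With no low-count filter, and with ADH1A, ADH1B and ADH1C summed, 2 were called. The added call was ADH1B or the class I sum, lower with glycine. Over all genes, 1221 were called higher and 1242 lower with no filter, against 1040 and 1013 in the main analysis. When each library was left out in turn, 1 to 2 members were called, with 2 only without vehicle replicate 1, where ADH1B passed the filter. The class I sum, and ADH1B without vehicle replicate 1, entered the test through the vehicle libraries alone, so the direction of these calls was fixed by the filter. Genes called higher numbered 587 to 926 and lower 655 to 1010 when a library was left out, against 1040 and 1013 with all 6. Fewer than 1040 by over 1.5 times were called higher without vehicle replicate 1 (590), glycine replicate 1 (594), glycine replicate 2 (617) and glycine replicate 3 (587), and 655 lower without glycine replicate 2. The alcohol, aldehyde and retinoid list had 6 to 10 calls and the medium-chain dehydrogenase list 1 to 2, both lowest without glycine replicate 3. These fits held fewer samples. With a replicate block, 866 genes were called higher and 918 lower, and ADH4 was again the only member called. Same-numbered libraries did not deviate together (correlations -0.058, -0.027 and -0.0026), so the numbers were not taken as pairs. Correlations were higher for vehicle replicate 1 with glycine replicate 3 (0.214), vehicle 2 with glycine 1 (0.214) and vehicle 3 with glycine 2 (0.180). For the other unlike numbers they were -0.199 to -0.154. The block followed the replicate numbers, and a block by this matching was not fitted.

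Among 27 other named genes, 345 of 351 comparisons kept the call, or the lack of one, of the main analysis, 3 lost a call and 3 gained one. The gains were ALDH1B1 with DESeq2, limma-voom and without vehicle replicate 1 (adjusted p = 0.0216, 0.0493 and 0.0469). Depth limited the class I genes, whose counts were at most 17 in a library.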
